A study of Mus musculus with 12 samples.

Results

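Bile acids are made from cholesterol in hepatocytes, secreted into bile, reabsorbed in the ileum and taken back up from portal blood. The classical pathway starts with Cyp7a1, and Cyp8b1 then decides how much cholic acid is formed; the alternative pathway runs through Cyp27a1 and Cyp7b1. Hsd3b7 and Akr1d1 alter the steroid ring, Baat couples the finished acid to taurine or glycine, Slc10a1 (NTCP) imports conjugated bile acids across the sinusoidal membrane, and Abcb11 (BSEP) exports them into the canaliculus. Nr0b2 encodes SHP, a nuclear receptor that is induced by the bile acid receptor FXR and represses Cyp7a1 and Cyp8b1. These 10 genes, of 54532 in the count files and 28715 with a count in at least 1 library, were taken by gene name, and all 10 were found. In mm10 they lie at chr4:6265612-6275633 (Cyp7a1), chr9:121914356-121916305 (Cyp8b1), chr1:74713574-74737892 (Cyp27a1), chr3:18071950-18243338 (Cyp7b1), chr7:127800604-127803802 (Hsd3b7), chr6:37530173-37568815 (Akr1d1), chr4:49489422-49506557 (Baat), chr12:80953183-80968705 (Slc10a1), chr2:69238282-69342616 (Abcb11) and chr4:133553376-133556536 (Nr0b2).

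The libraries were bulk RNA-seq of whole liver from male mice carrying floxed PPARγ alleles in all 4 groups. At 8 weeks of age the mice received either AAV8.TBG.PI.Cre.rBG, which drives Cre from a hepatocyte promoter (PPARγ-KO), or AAV8.TBG.PI.eGFP.WPRE.bGH (control littermates, called wild-type here and in the labels). All mice then ate a fast-food diet (FFD) rich in saturated fat, cholesterol and sugar for 2 or 5 months, so no group was on a normal diet, and the 5-month mice were also older. Each genotype and time had 3 libraries, numbered 1 to 3 as in the labels. Other liver cells kept their PPARγ alleles under this promoter. Total counts ranged from 16367775 to 27452284 per library. Wild-type replicate 1 at 2 months stood apart from the other 2 libraries of its group, so results that rest on it are given with and without it. The chi-square of its counts per gene against theirs was 31.7 and 27.6. Wild-type replicates 2 and 3 at 5 months were more alike than any other pair (2.44), and the remaining pairs of replicates had 9.4 to 17.5. Whether those 2 libraries are independent is not given in the sources used here, so the 5-month tests may understate the wild-type spread.

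The transcript of the targeted gene was not lower in the libraries labelled PPARγ-KO. Normalized CPM (counts scaled to library depth) of Pparg at 2 months were 38.6, 41.1 and 37.3 in wild-type libraries, whereas the PPARγ-KO-labelled ones had 50.3, 66.3 and 52.1. The 5-month wild-type libraries had 37.2, 41.5 and 37.1 CPM and the PPARγ-KO-labelled ones 86.5, 93.4 and 75.6 CPM. Every PPARγ-KO-labelled library lay above every wild-type library of its time (log2 fold change 0.52 ± 0.11 SE at 2 months, adjusted p = 0.0309, and 1.15 ± 0.08 at 5 months, adjusted p = 2.57e-06, edgeR quasi-likelihood test with Benjamini-Hochberg adjustment). The 2-month call was lost without wild-type replicate 2 or 3 or any 1 PPARγ-KO-labelled library, with values of 0.38 to 0.59, and with scaling by library size alone (0.44). The files count reads per gene, so reads from exons that Cre removes cannot be separated from the rest, and this count does not check the deletion. PPARγ protein, which the study measured by Western blot, is not analysed here. Directions below are therefore between libraries as labelled.

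Of the 10 genes, 4 were higher in the PPARγ-KO-labelled than in the wild-type libraries at 5 months: Cyp8b1, Akr1d1, Slc10a1 and Nr0b2, where 8.90% of all genes tested were called higher. Their upstream sequences are shown because these are the members called between genotypes at 5 months, each called also with any 1 library left out. RefSeq (GRCm38.p6) gave a promoter for 7 of the 10 genes, and the 250 bases before the start site are printed 5′ to 3′ on the gene's strand. They lie at chr9:121916306-121916555, minus strand (Cyp8b1), chr6:37529923-37530172, plus strand (Akr1d1), chr12:80968706-80968955, minus strand (Slc10a1), and chr4:133553126-133553375, plus strand (Nr0b2).
Cyp8b1: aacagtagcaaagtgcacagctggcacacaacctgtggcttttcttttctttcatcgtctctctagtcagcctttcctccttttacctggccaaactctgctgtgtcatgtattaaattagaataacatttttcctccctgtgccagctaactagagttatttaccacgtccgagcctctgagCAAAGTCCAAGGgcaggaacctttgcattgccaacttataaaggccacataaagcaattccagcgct
Akr1d1: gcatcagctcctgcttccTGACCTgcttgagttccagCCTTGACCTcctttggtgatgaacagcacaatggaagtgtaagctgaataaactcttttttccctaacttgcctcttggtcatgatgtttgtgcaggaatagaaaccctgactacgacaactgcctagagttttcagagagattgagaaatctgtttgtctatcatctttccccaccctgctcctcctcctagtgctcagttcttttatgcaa
Slc10a1: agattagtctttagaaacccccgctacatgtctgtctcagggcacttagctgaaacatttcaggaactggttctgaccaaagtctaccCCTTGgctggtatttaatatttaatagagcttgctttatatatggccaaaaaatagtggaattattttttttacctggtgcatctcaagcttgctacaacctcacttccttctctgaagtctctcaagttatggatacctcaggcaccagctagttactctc
Nr0b2: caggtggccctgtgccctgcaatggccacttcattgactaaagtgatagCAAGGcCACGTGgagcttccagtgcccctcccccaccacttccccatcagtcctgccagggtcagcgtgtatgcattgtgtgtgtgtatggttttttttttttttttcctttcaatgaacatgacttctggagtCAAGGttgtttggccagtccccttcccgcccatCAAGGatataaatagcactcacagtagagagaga
Capitals mark exact matches, on either strand, to 4 short motifs: CAAAGTCCA, a motif of the HNF4 type, CAAGG, the core of the LRH-1 motif, AGGTCA, a nuclear receptor half-site, and CACGTG, an E-box. Over all 32851 promoters in the table, windows of the same length held them in 0.384%, 46.0%, 14.0% and 6.02% of cases. Cyp8b1 held CAAAGTCCA at -67 to -59 from the start, overlapping a CAAGG at -60 to -56. Akr1d1 held AGGTCA in reverse at -232 to -227 and at -210 to -205, the latter overlapping a reverse CAAGG at -213 to -209. Slc10a1 held a reverse CAAGG at -162 to -158, a motif carried by 46.0% of all promoters. Nr0b2 held CAAGG at -201 to -197, -67 to -63 and -34 to -30 and CACGTG at -195 to -190. Of the other 3 members with a promoter in the table, of which Hsd3b7 was not tested and the others not called at 5 months, Hsd3b7 held a reverse CAAGG at -60 to -56, Abcb11 held a reverse AGGTCA at -56 to -51 and Cyp27a1 held none of the 4 motifs, so matches were not limited to the members called. These are letter matches, and binding was not measured.

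Per kilobase of gene length, the members spanned a wide range of levels. The level of the lowest, Hsd3b7, is uncertain, since 99.2% of its exon bases are shared with other genes. In wild-type livers at 2 months the order was Slc10a1 (208 ± 73.3 CPM per kb, SD, n = 3), Cyp27a1 (171 ± 42.5), Cyp8b1 (166 ± 32.0), Baat (108 ± 8.87), Abcb11 (86.2 ± 12.9), Akr1d1 (52.8 ± 10.3), Cyp7a1 (33.1 ± 17.7), Nr0b2 (29.1 ± 15.9), Cyp7b1 (19.5 ± 9.20) and Hsd3b7 (0.266 ± 0.127). Neighbours in this order had overlapping libraries from Slc10a1 down to Cyp8b1 and from Akr1d1 down to Cyp7b1, and the others were apart. In wild-type livers at 5 months Cyp27a1 (168 ± 11.4) and Baat (148 ± 12.9) came first with overlapping libraries, and Slc10a1 (86.6 ± 8.26) and Cyp8b1 (71.7 ± 7.93) came after Abcb11 (110 ± 13.4). In the PPARγ-KO-labelled livers at 5 months the libraries of Cyp27a1 (181 ± 10.3), Slc10a1 (176 ± 16.5), Cyp8b1 (174 ± 31.8) and Baat (166 ± 5.37) overlapped from each to the next.

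**Figure D1:**
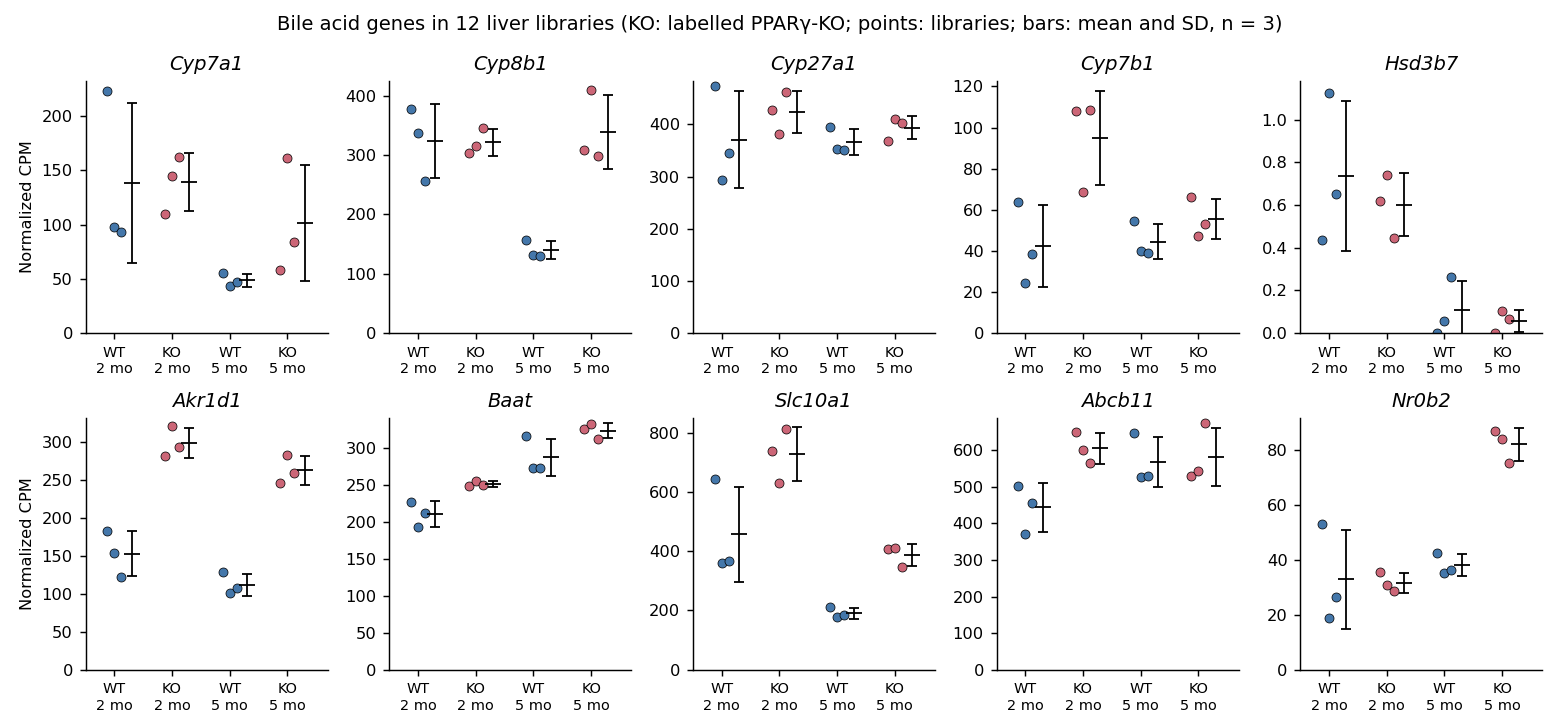
Normalized CPM of the 10 bile acid genes, 1 panel a gene with its own axis from 0. Points are libraries (blue wild-type, red PPARγ-KO-labelled) at 2 and 5 months of FFD, and the black bars are the mean and SD of 3 libraries. In Cyp8b1 the wild-type libraries at 5 months (131 to 158 CPM) sit below the other 3 groups, and in Nr0b2 the PPARγ-KO-labelled libraries at 5 months (75.4 to 86.9 CPM) sit above them.

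Between genotypes at 2 months, 1 of the 10 members was called, Akr1d1, which was higher in the PPARγ-KO-labelled livers. With the replicate number as a block, 3 members were called (Akr1d1, Cyp7b1 and Abcb11, all higher) and 817 genes in place of 519. The block was used because same-numbered libraries deviated together at this time in these same counts, and no label gives a pairing. Over all 14573 genes tested, 1.78% were called higher and 1.78% lower (259 and 260 genes, adjusted p under 0.05). The median log2 fold change of the members was 0.21, with 7 of 10 above 0, against -0.0048 for all genes. The 10 hepatocyte markers at this time had a median of 0.33, with all 10 above 0 (9 with scaling by library size alone). With scaling by library size alone the split over all genes was 171 higher and 349 lower, and the 1 member called was still higher. Without wild-type replicate 1 the members called were 5, all higher, beside 1577 of all 14925 genes tested (793 higher). Without wild-type replicate 2 no member was called, beside 117 of all 14856 genes tested (49 higher). In that fit 3 members had an unadjusted p under 0.05 (edgeR), and the number of all genes at that p was not counted.

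At 5 months, 4 of the 9 members tested were called, and all 4 were higher in the PPARγ-KO-labelled livers. Over all 14138 genes tested, 8.90% were called higher and 9.51% lower (1258 and 1344 genes). All 9 members had a log2 fold change above 0 (8 with scaling by library size alone, where Abcb11 was at -0.019), and their median was 1.04 against -0.0058 for all genes. With library size alone the split over all genes was 889 higher and 1894 lower, and the members called were still 4, all higher.

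**Figure D2:**
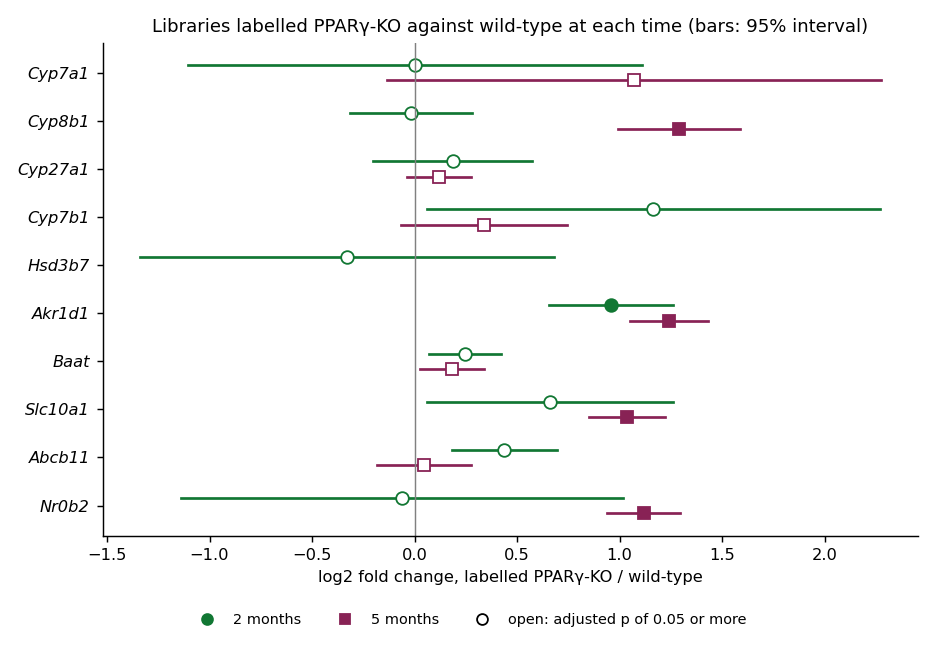
Log2 fold change of PPARγ-KO-labelled over wild-type libraries at 2 months (circles) and 5 months (squares), with 95% intervals from the edgeR fit of 3 against 3 libraries. Filled symbols passed an adjusted p of 0.05. The filled squares of Cyp8b1, Akr1d1, Slc10a1 and Nr0b2 lie between 1.04 and 1.29, and Hsd3b7 was not tested at 5 months.

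In the classical pathway, Cyp7a1, its rate-limiting enzyme, varied widely between libraries. At 2 months it measured 224, 98.0 and 93.0 CPM in wild-type and 110, 145 and 162 CPM in PPARγ-KO-labelled livers. The groups overlapped through wild-type replicate 1, and the log2 fold change was 0.0029 ± 0.42 (adjusted p = 0.998, edgeR). Without that library it was 0.53, and it did not pass the test. At 5 months Cyp7a1 measured 55.6, 43.7 and 46.7 CPM in wild-type and 58.5, 161 and 84.4 CPM in PPARγ-KO-labelled livers. The groups did not overlap, although the lowest PPARγ-KO-labelled library was close to the highest wild-type one, and the log2 fold change of 1.07 ± 0.44 did not pass the test (95% interval -0.14 to 2.28, adjusted p = 0.204, edgeR). Leaving out PPARγ-KO-labelled replicate 2 brought the value to 0.56.

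Cyp8b1, the sterol 12α-hydroxylase that makes cholic acid, had nearly equal means in both genotypes at 2 months. It measured 378, 337.5 and 256 CPM in wild-type and 303.5, 315 and 347 CPM in PPARγ-KO-labelled livers (log2 fold change -0.02 ± 0.13, 95% interval -0.32 to 0.28, adjusted p = 0.96, edgeR). At 5 months it measured 158, 131 and 131 CPM in wild-type and 309, 411 and 298 CPM in PPARγ-KO-labelled livers. The groups did not overlap, and Cyp8b1 was 2.45-fold higher in the latter (log2 1.29 ± 0.13, adjusted p = 0.000303, edgeR).

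In the alternative pathway, Cyp27a1, the mitochondrial sterol 27-hydroxylase, was not called at either time. Its log2 fold change was 0.18 ± 0.17 at 2 months (adjusted p = 0.616) and 0.12 ± 0.07 at 5 months (adjusted p = 0.295, edgeR), with 95% intervals of -0.20 to 0.57 and -0.04 to 0.27. Its libraries ranged from 294 to 473 CPM in wild-type and from 382 to 463 CPM in PPARγ-KO-labelled livers at 2 months, and from 350.4 to 394 and from 368.5 to 411 CPM at 5 months. The highest of the 2-month values was wild-type replicate 1, and without it the fold change was 0.40 and passed the test. Cyp7b1, the oxysterol 7α-hydroxylase, measured 63.6, 24.3 and 38.7 CPM in wild-type and 108, 68.5 and 108.5 CPM in PPARγ-KO-labelled livers at 2 months. The groups did not overlap, and the log2 fold change of 1.16 ± 0.42 did not pass the test (adjusted p = 0.244, edgeR), whereas with the replicate number as a block it was 1.23 and did (adjusted p = 0.02, range over 15 alternatives 0.02 to 0.457). At 5 months Cyp7b1 ranged from 38.8 to 54.4 CPM in wild-type and from 47.3 to 66.3 CPM in PPARγ-KO-labelled livers. These overlapped, and the log2 fold change was 0.34 ± 0.17 (adjusted p = 0.239, edgeR).

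Of the ring-modifying enzymes, Akr1d1, the steroid 5β-reductase, was higher at both times. At 2 months it measured 182.5, 153 and 123 CPM in wild-type and 282, 320.5 and 292.5 CPM in PPARγ-KO-labelled livers. At 5 months the values were 128, 101 and 107 CPM against 246, 283 and 258 CPM. The groups were apart at each time, with a log2 fold change of 0.96 ± 0.13 at 2 months (1.94-fold, adjusted p = 0.00986) and 1.24 ± 0.09 at 5 months (2.36-fold, adjusted p = 2.34e-06, edgeR). Without wild-type replicate 2 the 2-month value was still 0.96 but no longer passed the test. Hsd3b7, the 3β-hydroxysteroid dehydrogenase of the pathway, had 8 to 22 counts per library at 2 months and 0 to 5 at 5 months. Of the comparisons between pairs of groups it was tested only at 2 months (log2 fold change -0.33 ± 0.45, adjusted p = 0.754, edgeR). In GENCODE release M21, 62.0% of its exon bases are shared with the readthrough gene Gm49388 on the same strand and 62.4% with 9430064I24Rik on the opposite strand, and 99.2% with either. Whether the counting discarded such reads is not given in the sources used here, so its level is uncertain.

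Baat, which conjugates bile acids, was not called between genotypes at either time. At 2 months it measured 227, 192 and 211 CPM in wild-type and 248, 255 and 249.6 CPM in PPARγ-KO-labelled livers. The groups did not overlap, and the log2 fold change of 0.25 ± 0.08 did not pass the test (adjusted p = 0.126, edgeR). Without wild-type replicate 1 it was 0.30 and passed. At 5 months the libraries overlapped (272 to 316 against 312 to 332 CPM) and the log2 fold change was 0.18 ± 0.07 (adjusted p = 0.099, edgeR). Without wild-type replicate 1 of that time, its highest library, the value was 0.25 and passed.

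Among the transporters, the uptake carrier Slc10a1 measured 643, 361 and 366 CPM in wild-type and 738, 631 and 811 CPM in PPARγ-KO-labelled livers at 2 months. Wild-type replicate 1 lay within the PPARγ-KO-labelled range, and the log2 fold change of 0.66 ± 0.25 did not pass the test (adjusted p = 0.223, edgeR). Without that library it was 0.99 and passed. At 5 months Slc10a1 measured 211, 177 and 183 CPM in wild-type and 407, 409 and 346 CPM in PPARγ-KO-labelled livers. These groups were well apart (log2 1.04 ± 0.09, 2.05-fold, adjusted p = 6.28e-06, edgeR). The export pump Abcb11 measured 502.5, 372 and 457 CPM in wild-type and 648.5, 601 and 565 CPM in PPARγ-KO-labelled livers at 2 months. The groups did not overlap, and the log2 fold change of 0.44 ± 0.11 missed the threshold (adjusted p = 0.0696, edgeR), whereas with the replicate block it was 0.45 and passed (adjusted p = 0.0412, range over 15 alternatives 1.24e-05 to 0.235). Without wild-type replicate 1 it was 0.54 and passed. At 5 months Abcb11 measured 647, 526 and 530 CPM against 529, 542 and 673.5 CPM, with overlapping libraries and a log2 fold change of 0.05 ± 0.11 (95% interval -0.19 to 0.28, adjusted p = 0.82, edgeR). Antisense genes cover 3.0% of its exon bases.

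Nr0b2, the feedback repressor, measured 53.2, 18.95 and 26.6 CPM in wild-type and 35.7, 30.9 and 28.6 CPM in PPARγ-KO-labelled livers at 2 months. The PPARγ-KO-labelled libraries lay within the wild-type range, which wild-type replicate 1 set at its upper end (log2 fold change -0.06 ± 0.42, adjusted p = 0.96, edgeR). Without that library the value was 0.47 and did not pass the test. At 5 months Nr0b2 measured 42.7, 35.4 and 36.5 CPM in wild-type and 86.9, 84.2 and 75.4 CPM in PPARγ-KO-labelled livers. The groups did not overlap and Nr0b2 was 2.17-fold higher in the latter (log2 1.12 ± 0.08, adjusted p = 2.57e-06, edgeR). In a single fit of all 12 libraries the adjusted p of Nr0b2 at 5 months rose to 0.0521, the highest of its 15 alternatives (range from 1.46e-42).

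Over time, wild-type livers held less of 4 of the 9 members tested at 5 than at 2 months and more of 2. Over all 14491 genes tested in wild-type, 23.8% were called higher at 5 months and 22.7% lower. The count of members higher was close to the share of all genes. Mouse age, diet time and any difference in how the libraries of each time were made cannot be told apart. In wild-type, Cyp7a1 fell by 1.52 ± 0.43 on the log2 scale (adjusted p = 0.042), Cyp8b1 by 1.23 ± 0.14 (adjusted p = 0.000148), Slc10a1 by 1.28 ± 0.24 (adjusted p = 0.00642) and Akr1d1 by 0.47 ± 0.15 (adjusted p = 0.0298, edgeR). The libraries of the 2 times were apart for the first 3 of these and overlapped for Akr1d1. Baat rose by 0.43 ± 0.09 (adjusted p = 0.00308) and Abcb11 by 0.34 ± 0.12 (adjusted p = 0.0448, edgeR), while Cyp27a1, Cyp7b1 and Nr0b2 were not called. Without wild-type replicate 1 at 2 months Cyp7a1 fell by 0.99 and Slc10a1 by 0.95, both still called, and Nr0b2 rose by 0.73 and passed the test. The call of Cyp7a1 was lost without any 1 of the 5-month wild-type libraries (-1.62 to -1.45). That of Akr1d1 was lost without replicate 2 of 2 months (-0.47) or replicate 2 or 3 of 5 months (-0.39 and -0.43), and that of Abcb11 without any wild-type library except replicate 1 of 2 months (0.22 to 0.40) and with either other scaling (0.34 and 0.26).

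In the PPARγ-KO-labelled livers 2 of the 9 members tested rose over time and 3 fell. Over all 14478 genes tested there, 22.7% were called higher at 5 months and 22.2% lower. The count of members that rose was close to the share of all genes. Nr0b2 rose by 1.37 ± 0.09 on the log2 scale (2.58-fold, adjusted p = 1.73e-06) and Baat by 0.36 ± 0.06 (adjusted p = 0.000405, edgeR). Slc10a1 fell by 0.92 ± 0.10 (adjusted p = 8.06e-05), Cyp7b1 by 0.78 ± 0.23 (adjusted p = 0.0449) and Akr1d1 by 0.20 ± 0.07 (adjusted p = 0.043, edgeR). Cyp8b1 had a log2 change of 0.07 ± 0.12 (95% interval -0.22 to 0.36, adjusted p = 0.692) and Cyp7a1 of -0.47 ± 0.45 (adjusted p = 0.455, edgeR), neither called. Cyp7b1 lost its call without replicate 1 (-0.68) or 3 (-0.68) of 2 months or replicate 2 (-0.67) or 3 (-0.74) of 5 months, with no filter on low counts (-0.79) and in the fit of all 12 libraries (-0.78). Akr1d1 lost it without replicate 2 (-0.14) or 3 (-0.21) of 2 months or replicate 1 (-0.15) or 3 (-0.18) of 5 months, and also with DESeq2 (-0.19) and in the fit of all 12 libraries (-0.19). Without replicate 2 of 5 months Cyp7a1 was called (-0.97).

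**Figure D3:**
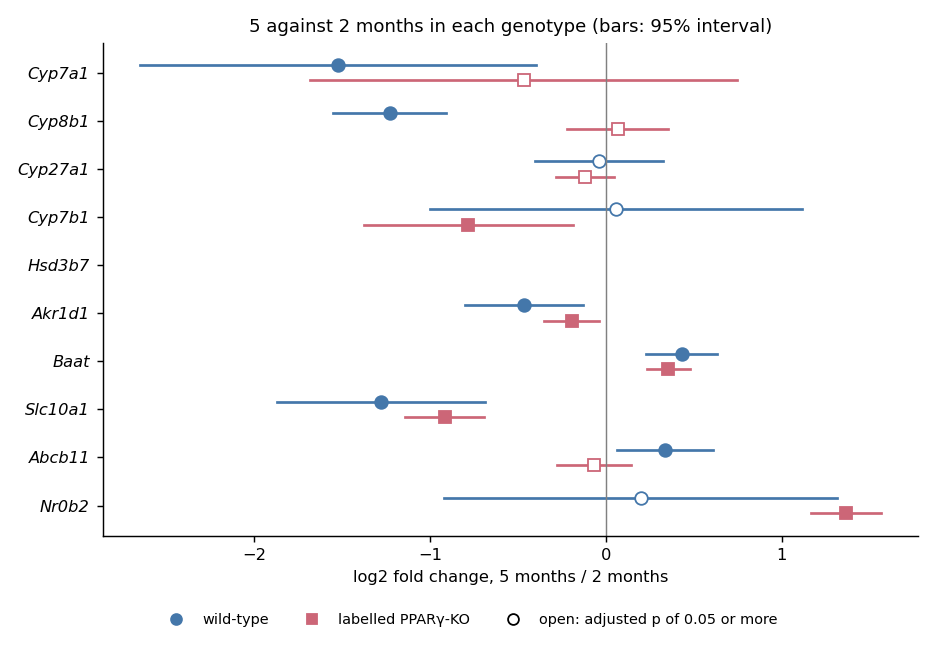
Log2 fold change from 2 to 5 months of FFD in wild-type (circles) and PPARγ-KO-labelled livers (squares), with 95% intervals from edgeR fits of 3 against 3 libraries; filled symbols passed an adjusted p of 0.05. Cyp8b1 lies at -1.23 in wild-type and at 0.07 in PPARγ-KO-labelled livers, and Hsd3b7 was not tested.

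The difference of the genotype effect between the times was tested in a fit of all 12 libraries, and 1 of the 10 members passed. Over all 15127 genes tested, 0.661% had a larger log2 fold change at 5 than at 2 months and 0.912% a smaller one. Cyp8b1 differed by 1.297 ± 0.21 (adjusted p = 0.0125, edgeR), and it passed under all 20 alternatives (1.13 to 1.44). Nr0b2 differed by 1.17 ± 0.45 (adjusted p = 0.269), Cyp7a1 by 1.05 ± 0.63 (adjusted p = 0.491) and Cyp7b1 by -0.84 ± 0.48 (adjusted p = 0.473, edgeR), and none of these passed. The differences of Akr1d1 (0.27 ± 0.17) and Slc10a1 (0.36 ± 0.29) did not pass either, so their higher fold at 5 months was not shown to differ from that at 2 months. Abcb11 (-0.40 ± 0.17), Baat (-0.07 ± 0.11), Cyp27a1 (-0.08 ± 0.19) and Hsd3b7 (-0.66 ± 1.22) did not pass.

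The other genes of bile acid synthesis were a list of 12 side-chain and alternative oxidation enzymes. At 5 months 1 of 11 tested was called higher, close to the 8.90% of all genes, and with scaling by library size alone 1 was also called lower. The gene called higher was Abcd3, the peroxisomal transporter of acyl-CoAs (571 ± 38.6 against 708 ± 39.1 CPM, log2 0.32 ± 0.07, adjusted p = 0.00937, edgeR). Its call was lost without wild-type replicate 2 or 3 (value range over its alternatives 0.25 to 0.37). At 2 months none of the 12 was called by edgeR, 5 had an unadjusted p under 0.05 and DESeq2 called 2, while with scaling by library size alone edgeR called 1 lower. Of all 14573 genes, edgeR called 1.78% each way, DESeq2 called 988, and edgeR with library size alone called 349 lower. An unadjusted p under 0.05 with a 1.3-fold change was met by 1608 of them, and the number without a fold limit was not counted. The medians of the list, 0.05 at 2 and 0.03 at 5 months, were close to those of all genes.

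The other transporters of bile acids and bile lipids went in both directions at 5 months, with 3 of 13 called higher and 5 lower. Of all genes, 8.90% were called higher and 9.51% lower at 5 months, and 1.78% each way at 2 months. Slco1a1, a sinusoidal uptake carrier of organic anions, was 6.52-fold higher in the PPARγ-KO-labelled livers (18.8 ± 3.92 against 121 ± 62.8 CPM, log2 2.70 ± 0.52, adjusted p = 0.0354, edgeR). Abcg5 and Abcg8, which together form the canalicular sterol exporter, fell by 0.82 ± 0.07 (adjusted p = 8.54e-06) and by 0.79 ± 0.08 (adjusted p = 3.13e-05, edgeR). Abcb1a, a multidrug exporter, fell by 0.52 ± 0.13 at 5 months (adjusted p = 0.0172) and by 0.90 ± 0.18 at 2 months (adjusted p = 0.028, edgeR). At 2 months 2 of 13 were called, both lower, and the other was Abcc3, a basolateral exporter of conjugates (464 ± 22.3 against 217.5 ± 37.9 CPM, log2 -1.10 ± 0.12, adjusted p = 0.00245, edgeR). Without any 1 wild-type library or without PPARγ-KO-labelled replicate 3, Slco1a1 lost its call, at values of 2.62 to 2.88. Abcb1a lost its call at 2 months without replicate 2 or 3 of wild-type or 1 or 3 of the PPARγ-KO-labelled libraries (range over alternatives -1.03 to -0.73), and at 5 months without wild-type replicate 2 or 3 or PPARγ-KO-labelled replicate 1 or in the fit of all 12 libraries (-0.64 to -0.43). Slc10a2 (ASBT), the apical bile acid uptake carrier, stood among the cholangiocyte markers and was chosen after its values were seen. It measured 54.7 to 58.65 CPM in wild-type and 101 to 115 CPM in PPARγ-KO-labelled livers at 5 months (log2 0.95 ± 0.07, adjusted p = 2.34e-06, edgeR). At 2 months the ranges of 21.9 to 39.4 and 61.5 to 82.4 CPM did not overlap, and the log2 fold change of 1.196 ± 0.24 missed the threshold (adjusted p = 0.0603, edgeR), whereas with the replicate block it was 1.22 and passed (adjusted p = 0.000211, range over 15 alternatives 2.06e-07 to 0.24).

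Genes that sense bile acids or control their synthesis were called higher in 7 of 16 cases at 5 months and lower in none (in 2 with scaling by library size alone). Over all genes tested, 8.90% were called higher and 9.51% lower at 5 months, and 1.78% each way at 2 months. The median log2 fold change of this list was 0.19. Ppargc1a, a coactivator of fasting metabolism, was 2.50-fold higher (6.95 ± 0.203 against 17.2 ± 0.714 CPM, log2 1.32 ± 0.10, adjusted p = 4.65e-06, edgeR). Klb, the coreceptor through which FGF15 restrains bile acid synthesis, was higher by 0.73 ± 0.10 (adjusted p = 0.000256), the nuclear receptor gene Nr1i3 (CAR) by 0.62 ± 0.12 (adjusted p = 0.00302) and Nr1d1 (REV-ERBα) by 0.50 ± 0.11 (adjusted p = 0.00839, edgeR). Nr1d1 is also a clock gene, and its call was lost in the fit of all 12 libraries (range over its alternatives 0.41 to 0.60). At 2 months 1 of 16 was called, Fgfr4, the hepatic receptor for FGF15 (log2 0.43 ± 0.10, adjusted p = 0.0489, edgeR), which lost its call without replicate 2 or 3 of wild-type or 1 or 2 of the PPARγ-KO-labelled libraries and with scaling by library size alone (0.36 to 0.52 over its alternatives). Nr1h4, the gene of FXR, was added after its values were seen. It was not called at 5 months (log2 0.19 ± 0.07, adjusted p = 0.0688, edgeR).

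Of 7 detoxification genes tested, 3 were higher and 1 lower at 5 months, where 8.90% of all genes were called higher and 9.51% lower. At 2 months 1 was higher and 1 lower, against 1.78% of all genes each way. Sult2a8, a bile acid sulfotransferase, was 2.25-fold higher (222 ± 23.2 against 495.5 ± 36.1 CPM, log2 1.17 ± 0.08, adjusted p = 2.34e-06, edgeR), and Cyp3a11, which hydroxylates bile acids, was lower at 0.447 times the wild-type level (6863 ± 332 against 3044 ± 800.3 CPM, log2 -1.16 ± 0.17, adjusted p = 0.00203, edgeR). Cyp2b10 was higher by 0.93 ± 0.22 (adjusted p = 0.0131) and Gsta3 by 0.51 ± 0.09 (adjusted p = 0.00153, edgeR). At 2 months Cyp3a11 fell by 0.47 ± 0.09 (adjusted p = 0.0268) and Gsta3 was higher by 0.39 ± 0.09 (adjusted p = 0.0408, edgeR), and both calls were lost with the replicate block, at -0.47 and 0.39, and without any 1 library other than wild-type replicate 1 (-0.53 to -0.43 and 0.34 to 0.41). That of Cyp3a11 was lost in the fit of all 12 libraries too (-0.47), and that of Gsta3 with scaling by library size alone (0.31). Cyp3a11, Cyp2b10, Sult2a8 and Gsta3 belong to families with near-identical copies, so reads may be split among them. At 5 months Cyp3a11 lost its call without wild-type replicate 1, and Cyp2b10 without wild-type replicate 2 or 3 or PPARγ-KO-labelled replicate 3 and in the fit of all 12 libraries (ranges over alternatives -1.38 to -0.997 and 0.79 to 1.21).

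**Figure D4:**
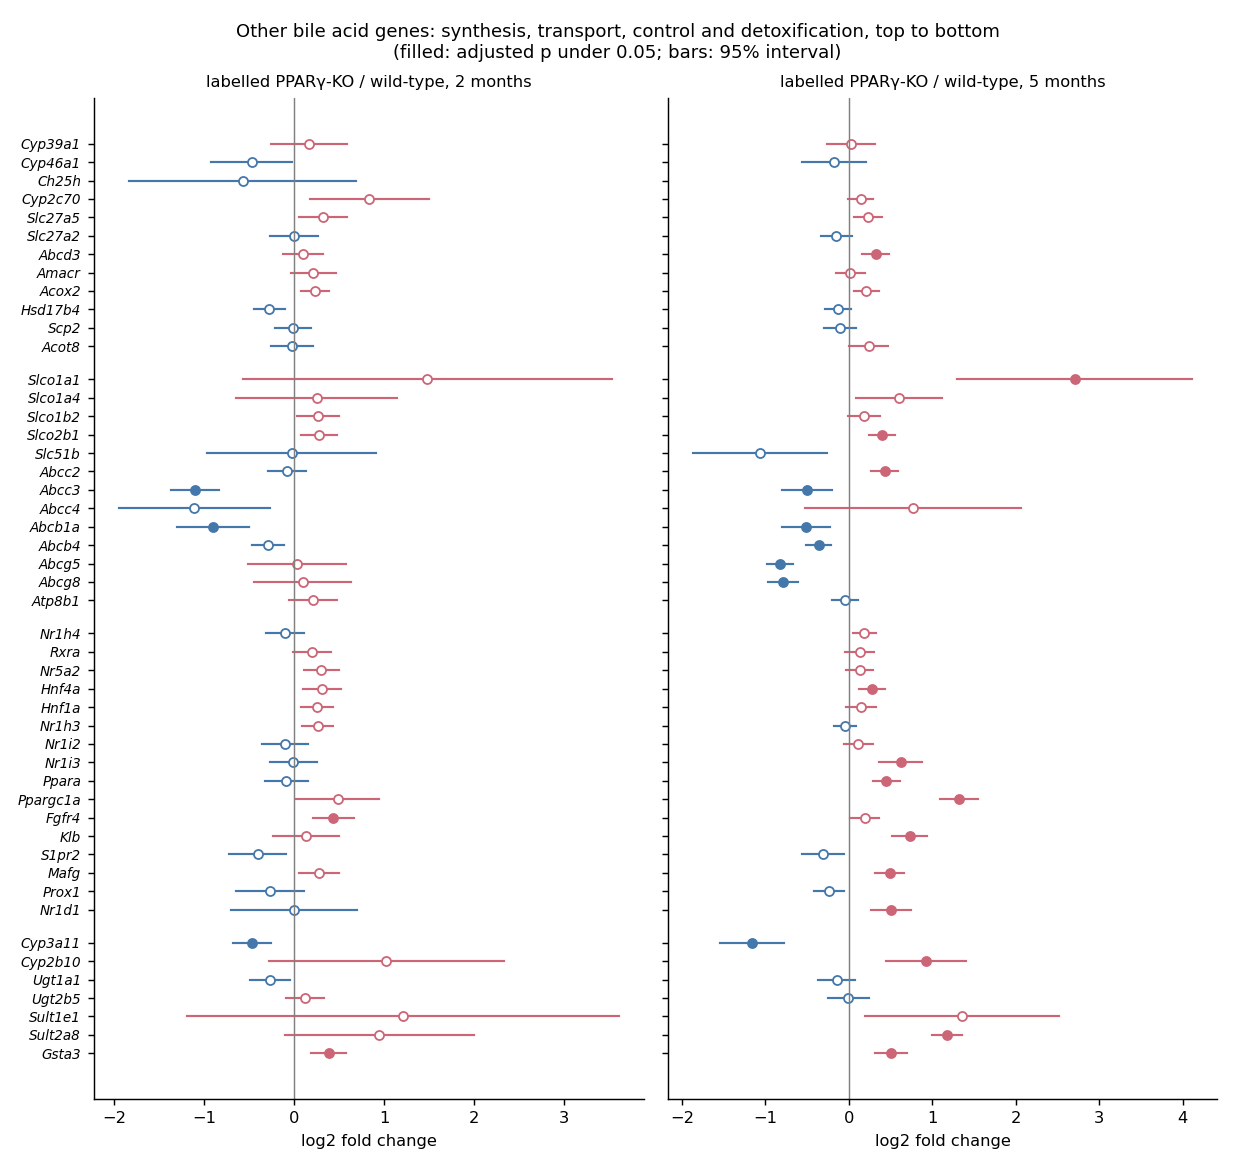
Log2 fold change of PPARγ-KO-labelled over wild-type livers for the other bile acid genes, in blocks from top to bottom of synthesis, transport, control and detoxification, at 2 months (left) and 5 months (right). Bars are 95% intervals of fits of 3 against 3 libraries, filled points passed an adjusted p of 0.05 and colour gives the sign. At 5 months Slco1a1 (2.70) lies farthest right and Cyp3a11 (-1.16) farthest left of the filled points.

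Clock genes, which are known to set the daily rhythm of Cyp7a1, were examined in the same comparisons. At 5 months 8 of 18 were higher in the PPARγ-KO-labelled livers and none lower, where 8.90% of all genes were called higher and 9.51% lower. The median over the list was 0.43 on the log2 scale, and all 18 fold changes were above 0 (16 with scaling by library size alone). Ciart was higher by 2.81 ± 0.45 (adjusted p = 0.00319), Per2 by 0.79 ± 0.18 (adjusted p = 0.017), Cry2 by 0.67 ± 0.10 (adjusted p = 0.000505) and Hlf by 0.59 ± 0.07 (adjusted p = 9.24e-05, edgeR). The level of Ciart was low in wild-type (0.883 ± 0.118 CPM, SD, 13 to 19 counts) and spread widely in PPARγ-KO-labelled livers (6.16 ± 3.58 CPM). At 2 months none of the 18 was called by edgeR, 3 had an unadjusted p under 0.05 and DESeq2 called 1, with a median of 0.06. Of all 14573 genes at that time, edgeR called 1.78% each way and DESeq2 called 988. An unadjusted p under 0.05 with a 1.3-fold change was met by 1608 of them, and the number without a fold limit was not counted. Over time, 13 of the 18 fell and 4 rose in wild-type livers (median -1.02), and 12 fell and 4 rose in PPARγ-KO-labelled livers (median -0.68). Of all genes, 22.7% fell and 23.8% rose in wild-type livers, and 22.2% fell and 22.7% rose in PPARγ-KO-labelled livers. The hour at which livers were taken is not given in the sources used here, and the part of these genes in the results on Cyp7a1, Cyp8b1, Slc10a1 and Nr0b2 was not tested. Per2 lost its call without any 1 wild-type library of 5 months (0.59 to 0.94 over its alternatives).

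**Figure D5:**
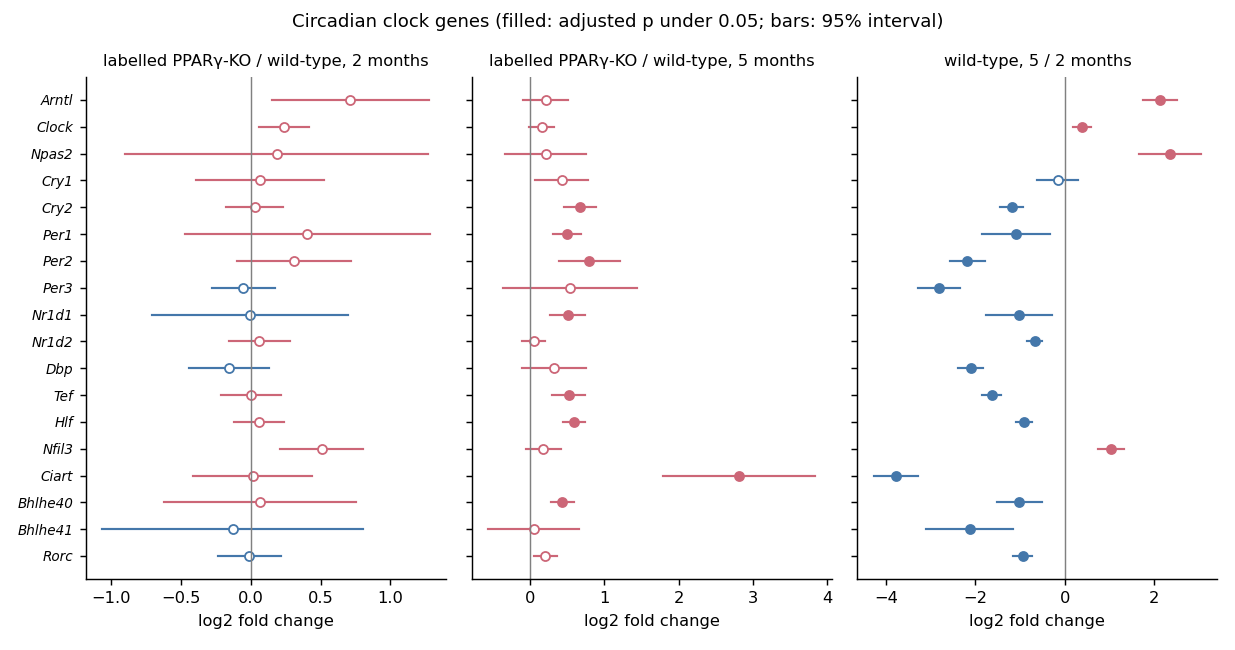
Log2 fold change of 18 circadian clock genes for PPARγ-KO-labelled over wild-type livers at 2 months and at 5 months and for wild-type livers over time, each panel with its own axis. Bars are 95% intervals and filled points passed an adjusted p of 0.05 in edgeR. In the middle panel all 18 points lie right of 0 (16 with scaling by library size alone), and in the right panel 13 of the 17 filled points lie left of it.

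Markers of liver cells were also compared between genotypes at 5 months, where 8.90% of all genes were called higher and 9.51% lower. In bulk liver, fewer cells of a type and less RNA per cell cannot be told apart. Of 10 macrophage markers, 8 were lower in the PPARγ-KO-labelled livers at 5 months and none higher (median -0.98); their summed level was 904 to 1095 CPM in wild-type and 427 to 640 CPM in PPARγ-KO-labelled libraries, against 357 to 454 CPM in all libraries of 2 months. Stellate cell markers were lower in 5 of 10 cases (670 to 779 against 541.5 to 597 CPM), and endothelial markers in 4 of 10 (357 to 366 against 307 to 337 CPM). Of 10 hepatocyte markers 2 were higher and none lower (1 lower with scaling by library size alone), with a median of 0.12 and sums of 60630 to 65680 against 81090 to 91810 CPM. These sums were weighted to Alb, with means of 37080 CPM in wild-type and 57270 CPM in PPARγ-KO-labelled livers. Of the 10 fold changes 6 were above 0 and 4 below. Of 8 cholangiocyte markers tested 2 were higher, Slc10a2 and Sox9, and none lower, with 6 fold changes above 0 and 2 below. Slc10a2 had means of 56.7 CPM in wild-type and 109 CPM in PPARγ-KO-labelled livers, against 1.255 and 1.10 CPM for Krt7 and 1.69 and 2.10 CPM for Krt19. The cells that gave the Slc10a2 reads were not tested. No marker was at 0 in all libraries. In wild-type livers 9 of the 10 macrophage markers rose over time (median 1.25), where 23.8% of all genes rose. In PPARγ-KO-labelled livers 4 rose and 2 fell, where 22.7% of all genes rose and 22.2% fell. At 2 months, where Akr1d1 was called, 1 macrophage marker was higher and 1 lower, 1 hepatocyte marker was higher (sums of 60960 to 71780 against 79130 to 92150 CPM) and 1 stellate marker was lower (556 to 669 against 445 to 450.5 CPM). Each direction held 1.78% of all genes at this time. The hepatocyte sums were again weighted to Alb, with means of 44590 CPM in wild-type and 57690 CPM in PPARγ-KO-labelled livers. The part of cell makeup in these results was not tested.

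Across the 12 libraries the members did not move as a block. As a description, with groups, depth and genotype shared between the points, Pearson's r of log2 CPM was 0.85 between Cyp7a1 and Cyp8b1, 0.85 between Cyp7a1 and Slc10a1, 0.84 between Cyp8b1 and Slc10a1 and 0.81 between Akr1d1 and Slc10a1. Nr0b2 had r = 0.82 with Baat but 0.20 with Cyp8b1 and -0.0014 with Cyp7a1. Over 13170 genes, the profile most like that of Cyp7a1 was Mpv17l (r = 0.96), followed by the clock gene Nr1d1 (0.94) and Klb (0.93). Closest to Cyp8b1 were Pdk1 (0.98), Lrba (0.94) and Slc23a1 (0.94), and closest to Slc10a1 were Cyp2d22 (0.98), Slco2b1 (0.97) and Sec16b (0.97). Akr1d1 was followed most closely by Aldh1l1 (0.98), Reps2 (0.97) and Dmgdh (0.97), Baat by Yipf6 (0.98), Acox2 (0.98) and Hebp1 (0.98), and Cyp7b1 by Mup3 (0.96), Mup21 (0.95) and Slc22a7 (0.95). For Cyp27a1 they were Tfr2 (0.94), Gfra1 (0.92) and Ebp (0.92), for Abcb11 Ptms (0.93), Bco2 (0.93) and Dpp9 (0.92), and for Nr0b2 Bbc3 (0.93), Htatsf1 (0.92) and Cbln3 (0.91).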

How the data were processed

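Total RNA of whole liver was sequenced on an Illumina NovaSeq by Novogene. The authors deposited raw counts of reads per gene for each of 12 libraries, on mm10 gene models with their lengths. The paper's methods name STAR and the submitters' processing notes name HISAT2; the counting tool, annotation and strand setting are not given in the sources used here. For 98.3% of genes the coordinates equal those of GENCODE release M21, and 27 names had been stored as dates.

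Counts were tested with edgeR 4.0.16 in R 4.3.3 (filterByExpr, TMM, robust quasi-likelihood fit, two-sided, Benjamini-Hochberg over all genes tested, adjusted p under 0.05). Each pair of groups was fitted alone, and the difference of genotype effects in a fit of all 12 libraries. Printed CPM were scaled by TMM over all 12 libraries. Fold changes are log2 with their standard errors. The script was tested on simulated data. Alternatives were scaling by DESeq2 size factors or by library size alone, DESeq2 1.42.0, other filters and thresholds, a replicate block, all libraries in 1 fit, and leaving out each library.

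Same-numbered libraries deviated together between genotypes at 2 months (r = 0.221, 0.325 and 0.139 over the 5000 most expressed genes), so results with the replicate block are given beside the main ones there. The main 2-month tests did not use the pairs. The pairing rests on this check alone, made on the same counts, so calls gained with the block are not independent support. Wild-type libraries with the same number at the 2 times had r of 0.237, 0.184 and 0.0185 and were not taken as paired. At 5 months r was -0.0746, -0.062 and -0.186, and the numbers did not pair. Nothing says whether libraries are separate mice, so p-values measure the spread between these libraries.

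The members and lists were chosen with earlier results of these data known. Named were all 10 members, Pparg, up to 4 called genes of largest fold per list and genotype comparison (mean CPM of at least 1), and the 3 most similar profiles per member. Slc51a, Gpbar1, Fgf15, Sult2a1 and Sctr had 0 to 7 counts per library and were not tested. Lists were other synthesis, transporter, control, detoxification and clock genes and hepatocyte, cholangiocyte, macrophage, stellate and endothelial markers.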

Additional observations from a re-analysis of the deposited data

Results flagged for a closer look

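Among the members, Pparg and the bile acid and clock lists, the genotype effect of 6 genes differed between 2 and 5 months when all 12 libraries were fitted together. Each had a larger log2 fold change of PPARγ-KO-labelled over wild-type at 5 months. Cell markers are not described here, and of them 4 macrophage, 1 hepatocyte and 1 endothelial marker had a smaller one. Over all genes tested, 100 had a larger and 138 a smaller one. Cyp8b1 differed by 1.297 ± 0.21 (adjusted p = 0.0125). Pparg itself differed by 0.62 ± 0.15 (adjusted p = 0.0432). The canalicular exporter gene Abcc2 differed by 0.49 ± 0.12 (adjusted p = 0.0474). Among the clock genes, Ciart, which had a mean of only 0.883 CPM in wild-type livers at 5 months, differed by 2.79 ± 0.54 (adjusted p = 0.0338). Cry2 differed by 0.63 ± 0.14 (adjusted p = 0.0357) and Hlf by 0.52 ± 0.11 (adjusted p = 0.0212, edgeR). Of these, Cyp8b1 passed under each of its 20 alternatives, while the others lost the call under 5 to 12 of them, mostly where 1 library was left out.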

How the results depend on the processing

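At 2 months the counts of calls depended on the setting and on single libraries. Against 519 genes, 1063 were called at an adjusted p under 0.1, 1608 at an unadjusted p under 0.05 with 1.3-fold, 988 by DESeq2, 1562 with no filter, 817 with the replicate block and 1153 in a fit of all 12 libraries. The members called at 2 months were then 2, 4, 3, 3, 3 and 2, all higher. Leaving out 1 library gave 117 to 1577 genes and 0 to 5 members at 2 months, lowest without wild-type replicate 2 and highest without wild-type replicate 1. At 5 months it gave 1593 genes without wild-type replicate 3, 1601 without wild-type replicate 2 and up to 3078 without wild-type replicate 1, with 4 or 5 members. In wild-type over time it gave 3 to 8 members. The lowest came without 5-month replicate 2 (5357 genes called) and the highest without 2-month replicate 1 (6968 genes), against 6725 genes in the main fit. In PPARγ-KO-labelled livers over time the unadjusted rule called 3 members and 5210 genes, against 6502 genes in the main fit. For the difference of effects, 519 genes were called at an adjusted p under 0.1, 1563 with 3 members by the unadjusted rule, 565 by DESeq2 and 793 with 2 members with no filter. Leaving out 1 library gave 83 genes without wild-type replicate 3 of 5 months to 567 without wild-type replicate 1 of 2 months. The causes of these shifts were not tested.

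The replicate block changed the calls of Cyp7b1 (1.23), Abcb11 (0.45) and Slc10a2 (1.22) at 2 months, of Cyp3a11 and Gsta3 at 2 months, of Cyp7b1 (0.34) and Per2 (0.77) at 5 months, and of the difference of Abcc2 (0.49), and no other call of the named genes. With the block, 2303 genes and 5 members were called at 5 months, where the numbers did not pair. Over time the pairs correlated at 0.0185 to 0.237 in wild-type and -0.0353 to 0.22 in PPARγ-KO-labelled livers and were not taken as paired.

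Values that changed sign were all uncalled. With library size alone, Cyp7a1 at 2 months was -0.0591, Cyp7b1 in wild-type over time -0.012 and Abcb11 at 5 months -0.019, and with the replicate block Nr0b2 at 2 months was 0.050. With 1 library left out, the 2-month fold change ranged from -0.21 to 0.53 for Cyp7a1, -0.16 to 0.11 for Cyp8b1, -0.59 to 0.10 for Hsd3b7 and -0.34 to 0.47 for Nr0b2. That of Abcb11 at 5 months ranged from -0.069 to 0.14. Over time in wild-type, Cyp27a1 ranged from -0.18 to 0.18, Cyp7b1 from -0.22 to 0.48, Nr0b2 from -0.081 to 0.73 and Pparg from -0.08 to 0.0067. In PPARγ-KO-labelled livers Cyp8b1 ranged from -0.089 to 0.16 and Abcb11 from -0.18 to 0.00080. The difference ranged from -0.29 to 0.064 for Cyp27a1 and from -1.49 to 1.07 for Hsd3b7. Of 1393 values of named genes under alternatives, 1194 kept direction and side of the threshold, 130 lost the call, 41 gained it and 28 changed sign. With 3 libraries a group, intervals were wide for Cyp7a1, and the 0 to 22 counts of Hsd3b7 limited its test.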

Other observations

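Over time, other bile acid genes moved in both genotypes, and the genes here were chosen after their values were seen. In wild-type livers 9 of 16 control genes were lower at 5 than at 2 months and 2 higher, against 22.7% and 23.8% of all genes. In PPARγ-KO-labelled livers 8 were lower and 1 higher, against 22.2% and 22.7% of all genes. Ppara, the fatty acid receptor gene, fell by 1.5 ± 0.09 on the log2 scale in wild-type (adjusted p = 2.28e-06) and by 0.98 ± 0.10 in PPARγ-KO-labelled livers (adjusted p = 8.39e-05, edgeR). Nr1i3 fell by 1.59 ± 0.13 in wild-type (adjusted p = 1.01e-05) and by 0.97 ± 0.10 in PPARγ-KO-labelled livers (adjusted p = 2.61e-05, edgeR).

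Of 13 other transporters, 4 were lower over time in wild-type and 6 in PPARγ-KO-labelled livers, with none higher in either, where 22.7% and 22.2% of all genes were called lower. Slco1a1 had 155 ± 111 CPM (SD, n = 3) in wild-type and 436 ± 130 CPM in PPARγ-KO-labelled livers at 2 months, against 18.8 ± 3.92 and 121 ± 62.8 CPM at 5 months. Abcg5 fell by 0.72 ± 0.06 (adjusted p = 6.67e-06) and Abcg8 by 0.70 ± 0.06 (adjusted p = 6.67e-06) in PPARγ-KO-labelled livers, and their wild-type changes of 0.14 ± 0.23 and 0.20 ± 0.24 were not called (edgeR). Cyp3a11 rose by 1.504 ± 0.10 in wild-type (adjusted p = 3.07e-06) and by 0.80 ± 0.20 in PPARγ-KO-labelled livers (adjusted p = 0.0213, edgeR).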
